A study of Mus musculus with 4 samples.

Results

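The set comprises 10 genes of the entry into the cell division cycle: the Cdkn2a and Cdkn2b locus on mouse chromosome 4, its neighbour Mtap, and the G1 regulators Cdkn2c, Cdkn1b, Cdk4, Cdk6, Ccnd1, Ccnd2 and Rb1. They are 10 of the 54532 genes counted by bulk RNA-seq in 4 libraries. C3H10T1/2, the line sequenced, is made of mouse mesenchymal stem cells that grow on in culture. Cdkn2a and Cdkn2b were chosen because they held no reads in any edited line, and the other 8 for their place in the same pathway or beside the locus, with their patterns known. The counts of all 10 therefore took part in the choice and are given as a description, with no test.

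The DKO cells are a Dnmt3a and Dnmt3b double knockout, with 1 library from clone 1 and 1 library from clone 5. Both targeted genes encode enzymes that place new methyl groups on CpG sites of DNA. PRDX1MT is 1 library from cells with a CRISPR edit in Prdx1, at the intron 5 splice acceptor, whose genotype label also reads as a Prdx1 knockout. WT is 1 library from unedited cells. All were grown in DMEM with fetal bovine serum, and it is not stated whether Prdx1 is edited in the DKO clones too or whether PRDX1MT is 1 clone. With 1 unedited library, the passage through editing and the gene that was edited cannot be told apart. The p-values below measure only the spread between the 2 DKO clones.

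D-type cyclins pair with the kinases Cdk4 and Cdk6 in G1 and phosphorylate the retinoblastoma protein, the product of Rb1, which then releases E2F transcription factors that turn on genes for DNA synthesis. The INK4 proteins, encoded by Cdkn2a, Cdkn2b, Cdkn2c and Cdkn2d, bind Cdk4 and Cdk6 and keep them from the cyclins, while the CIP/KIP proteins, encoded by Cdkn1a, Cdkn1b and Cdkn1c, act on cyclin-bound kinases. Cdkn2a is read from separate starts into p16Ink4a, an INK4 inhibitor, and p19Arf, which holds back Mdm2 and so stabilises p53, and this locus is commonly lost or silenced when mouse fibroblasts become immortal in culture. Mtap, next to it, encodes the methylthioadenosine phosphorylase of the methionine salvage pathway.

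The promoters at the locus are shown because the DKO clones were edited in the enzymes that methylate CpG sites, and because Cdkn2a and Cdkn2b were at 0 reads while Mtap was not. RefSeq promoter windows on GRCm38.p6, the build called mm10, run from 250 bases before to 50 bases after a transcript start and were found for 7 of the 10 genes; Ccnd1, Ccnd2 and Rb1 had none. Capitals mark each CpG, written CG. The windows lie at chr4:89294570-89294869 and chr4:89282143-89282442 (Cdkn2a, minus strand), chr4:89310983-89311282 (Cdkn2b, minus strand) and chr4:89137120-89137419 (Mtap, plus strand).
Cdkn2a, upstream start (p19Arf): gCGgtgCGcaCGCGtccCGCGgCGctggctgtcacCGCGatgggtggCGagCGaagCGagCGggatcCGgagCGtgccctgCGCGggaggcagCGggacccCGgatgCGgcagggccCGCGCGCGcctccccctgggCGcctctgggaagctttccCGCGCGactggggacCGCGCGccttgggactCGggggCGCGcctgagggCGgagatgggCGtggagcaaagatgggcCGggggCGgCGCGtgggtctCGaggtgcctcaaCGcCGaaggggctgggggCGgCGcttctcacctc
Cdkn2a, downstream start (p16Ink4a): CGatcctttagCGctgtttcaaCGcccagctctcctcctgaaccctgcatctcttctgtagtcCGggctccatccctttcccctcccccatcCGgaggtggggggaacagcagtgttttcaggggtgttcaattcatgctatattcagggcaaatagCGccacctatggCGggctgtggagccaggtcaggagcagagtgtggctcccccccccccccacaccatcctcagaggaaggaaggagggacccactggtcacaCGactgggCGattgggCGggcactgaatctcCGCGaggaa
Cdkn2b: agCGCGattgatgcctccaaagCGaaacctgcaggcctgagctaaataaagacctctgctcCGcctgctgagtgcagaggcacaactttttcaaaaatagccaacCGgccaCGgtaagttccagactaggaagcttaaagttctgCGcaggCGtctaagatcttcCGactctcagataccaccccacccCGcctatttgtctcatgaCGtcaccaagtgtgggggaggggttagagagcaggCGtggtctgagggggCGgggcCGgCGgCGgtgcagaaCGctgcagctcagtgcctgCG
Mtap: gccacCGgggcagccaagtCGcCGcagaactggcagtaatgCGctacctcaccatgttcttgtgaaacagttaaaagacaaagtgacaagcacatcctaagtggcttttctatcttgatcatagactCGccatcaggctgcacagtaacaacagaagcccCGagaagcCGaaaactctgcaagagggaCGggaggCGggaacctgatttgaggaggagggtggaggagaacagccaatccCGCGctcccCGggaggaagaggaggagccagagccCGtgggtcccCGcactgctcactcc

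The upstream Cdkn2a window held 45 CpG sites and was 77% G or C, and 1.93% of 32851 mouse promoter windows of the same length held as many. The downstream Cdkn2a window, 12.4 kb away, held 12 CpG sites, Cdkn2b 18 and Mtap 14, counts that 39.6%, 29.7% and 36.3% of windows reached or passed. The median window held 7. The p19Arf start is thus the CpG-dense one of the locus, and the windows of Cdkn2b, the p16Ink4a start and Mtap are closer to the middle of the range. Searched on both strands, GGGCGG, which itself contains a CG, occurred 3 times in the upstream Cdkn2a window, once each in the downstream window and in Cdkn2b, and not in Mtap, and 35.7% of all windows held it. TATAAA, searched on both strands, was in none of the 4 windows and in 13.6% of all windows; it cannot overlap either of the other motifs. Of the remaining matched genes, Cdkn2c held 33 and 8 CpG sites in its 2 windows, Cdkn1b 30, Cdk6 27 and Cdk4 22. Methylation of these sites was not measured here.

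The libraries held 27570136 to 37685798 counts, so 3 counts, about the most that a count of 0 allows, were worth 0.0729 to 0.121 CPM (counts per 1e6 counts, scaled by the trimmed mean of M-values). Prdx1 was at 392 and 332 CPM in DKO clones 1 and 5, 31.2 in PRDX1MT and 399 in WT. Dnmt3a was at 31.3 and 25.9 CPM in the DKO clones, 80.9 in PRDX1MT and 43.7 in WT, and Dnmt3b at 2.83, 2.03, 3.74 and 3.28 CPM in the same order; gene counts do not show whether a small edit breaks a reading frame. The 10 mesenchymal markers summed to 21886 and 40110 CPM in the DKO clones, 33758 in PRDX1MT and 22200 in WT, led by Col1a1, Col1a2 and Vim. Of these markers Thy1 was at 0.76 and 1.38 CPM in the DKO clones and 0.88 in PRDX1MT against 29.0 in WT, and Nt5e was under 1 CPM in every library. The 6 haematopoietic markers summed to at most 2.28 CPM and the 4 epithelial ones to at most 1.87 CPM, with Epcam at 0 in all 4 libraries. The 4 endothelial markers summed to 6.31 and 12.3 CPM in the DKO clones, 16.8 in PRDX1MT and 5.91 in WT, nearly all of it Tek. In bulk RNA, fewer cells of a type and less RNA per cell cannot be told apart.

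Cdkn2a (ENSMUSG00000044303, chr4:89274471-89294653) had 0 reads in DKO clone 1, 0 in DKO clone 5 and 0 in PRDX1MT, against 434 reads, or 10.5 CPM (95% exact Poisson interval 9.58 to 11.6), in WT. Cdkn2b (ENSMUSG00000073802, chr4:89306299-89311039), the INK4 gene 11.6 kb further on, had 0 reads in each of the same 3 libraries, against 482 reads or 11.7 CPM (10.7 to 12.8) in WT. All reads of both genes thus came from the unedited library. With 3 counts over each library as the floor, Cdkn2a was at least 125-fold lower in DKO clone 1, at least 96.8-fold lower in DKO clone 5 and at least 87.5-fold lower in PRDX1MT than in WT. For Cdkn2b the bounds were 139-fold, 107-fold and 97.1-fold. With the 3 edited libraries pooled and 3 counts over the group, the bounds were 310-fold for Cdkn2a and 344-fold for Cdkn2b. These bounds take the WT count as exact, and the 95% conditional exact binomial interval allows smaller folds. Its log2 limits nearest WT were -6.67, -6.29 and -6.15 for Cdkn2a in DKO clone 1, DKO clone 5 and PRDX1MT. For Cdkn2b they were -6.82, -6.44 and -6.30. Pooled, the limits were -7.97 for Cdkn2a and -8.12 for Cdkn2b. A gene that gives no RNA and a gene that is missing from the genome leave the same count of 0, and they cannot be told apart here.

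The gene count also does not say which Cdkn2a product WT cells made. The annotated transcripts of the p16Ink4a and p19Arf starts share 575 of 1172 exon bases, with 277 bases found in only 1 of them and 320 in only the other, and the deposited value is 1 count for the gene. No exon base of Cdkn2a or Cdkn2b lies under another gene.

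Mtap (chr4:89137122-89181081) ends 93.4 kb before Cdkn2a and kept reads in every library, at 4962 and 4405 reads in DKO clones 1 and 5, 2121 in PRDX1MT and 8066 in WT. Those are 139 and 160 CPM in the DKO clones (150 ± 14.7, SD, n = 2), 85.3 CPM in PRDX1MT and 196 CPM in WT. WT was the highest and PRDX1MT the lowest, and the DKO clones lay between them. Mtap was 1.41-fold lower in DKO clone 1, 1.23-fold lower in DKO clone 5 and 2.30-fold lower in PRDX1MT than in WT (95% conditional exact binomial interval of the last 2.19 to 2.41, counting error only).

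**Figure D1:**
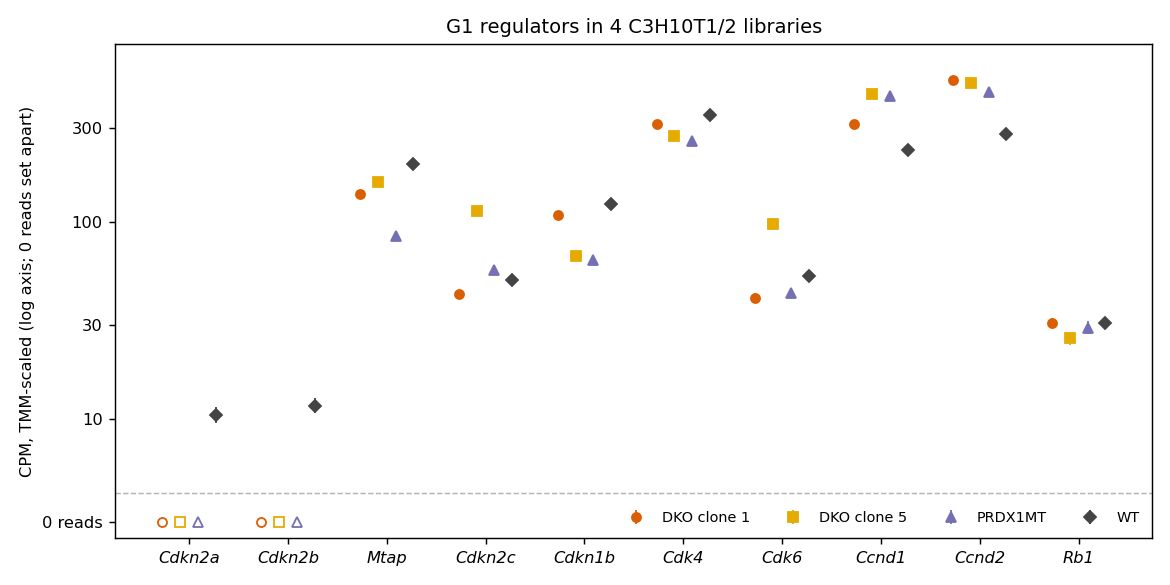
The 10 genes in CPM on a log axis, with 1 point per library (DKO clone 1, DKO clone 5, PRDX1MT, WT) and exact Poisson 95% intervals, most of them smaller than the point; open symbols in the strip at the bottom are libraries with 0 reads. Cdkn2a and Cdkn2b have a point on the scale in WT, at 10.5 and 11.7 CPM, while DKO clone 5 stands above the other libraries for Cdkn2c and Cdk6 and WT stands below them for Ccnd1 and Ccnd2.

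Reads were looked for on either side of the pair. Within 0.5 Mb of Cdkn2a the annotation holds 40 genes, 17 of them with a read in WT, and 5 of those 17 were at 0 in all 3 edited libraries. Apart from Gm13272, a protein-coding gene with 1 WT read, these 5 form an unbroken run: the lincRNA Gm12606 with 3 WT reads, Cdkn2a, Cdkn2b, and the noncoding transcript Gm12609 with 11 WT reads. The run covers 164 kb, chr4:89235699-89399880. The nearest genes with reads in both DKO clones are the snoRNA Gm26490 on the Mtap side, with 13 and 10 reads in DKO clones 1 and 5, 5 in PRDX1MT and 18 in WT, and the noncoding Gm12610 on the other side, with 14 and 11 reads in the DKO clones, 0 in PRDX1MT and 13 in WT. They stand 239 kb apart, and the only other gene between them, the pseudogene Tgif2-ps1, had no read in any of the 4 libraries. At the WT level, Gm12609 would have given 9.53 and 7.36 reads in DKO clones 1 and 5 and 6.65 in PRDX1MT, and Gm12606 2.6, 2.01 and 1.81 reads in the same order, so the counts of 0 for Gm12606 were within what this depth allows.

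In PRDX1MT the stretch without reads went further. Gm12610, the pseudogene Gm12608 (10 and 9 reads in DKO clones 1 and 5, 0 in PRDX1MT, 3 in WT) and the small RNA Gm27580 (1 and 1 reads in the DKO clones, 0 in PRDX1MT, 1 in WT) were all at 0 there. At the depth of the PRDX1MT library the WT level would have given 7.86, 1.81 and 0.60 reads, so the last 2 were not measurable at this depth. Beyond them Dmrta1, a transcription factor gene 385 kb from Cdkn2a, had 0 reads in all 4 libraries. It is 1 of 16 such genes among the 23 protein-coding genes within 0.5 Mb, along with the type I interferon genes Ifnz, Ifna1, Ifna4, Ifna6, Ifna7 and Ifna11. Only Ifne among the interferon genes passed 2 reads in any library, with 6 and 0 reads in DKO clones 1 and 5, 1 in PRDX1MT and 3 in WT.

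On the Mtap side, the 6 noncoding genes with at least 10 WT reads were also lowest in PRDX1MT. AL805899.1, a lincRNA 336 kb from Cdkn2a, was at 16.6 and 12.1 CPM in DKO clones 1 and 5 and 7.60 CPM in PRDX1MT, against 33.0 CPM in WT. Gm12602, beside Mtap, was at 5.72 and 7.41 CPM in the DKO clones and 2.65 in PRDX1MT, against 8.70 in WT. In AL805899.1, Gm12602, Wincr1, Mtap, Gm12607 and Gm26490, all between 336 kb and 91.4 kb from Cdkn2a, WT had the highest level of the 4 libraries and PRDX1MT the lowest. AL805899.2 kept the same lowest library, with 2.92 and 1.82 CPM in the DKO clones, 0.68 in PRDX1MT and 2.28 in WT. These noncoding genes were named after their values were seen.

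**Figure D2:**
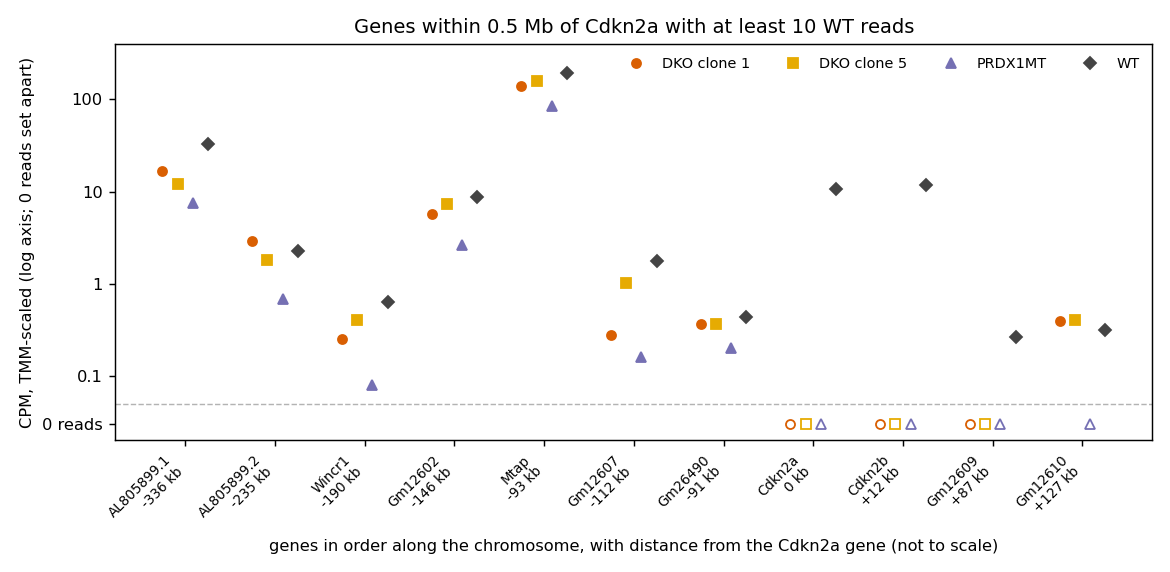
Genes within 0.5 Mb of Cdkn2a that held at least 10 reads in WT, in order of their start along chromosome 4 (not to scale; the distance of each from Cdkn2a in kb stands under its name), with CPM on a log axis and 1 point per library. Open symbols at the bottom are libraries with 0 reads: all 3 edited libraries for Cdkn2a, Cdkn2b and Gm12609, and PRDX1MT alone for Gm12610.

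The wider neighbourhood was set beside the rest of the chromosome. Of 14 other protein-coding genes with at least 100 reads within 5 Mb of Cdkn2a, 10 were below WT in DKO clone 1, 8 in DKO clone 5 and 11 in PRDX1MT, with median log2 ratios of -0.45, -0.01 and -0.24. The 742 other such genes of chromosome 4 had medians of -0.19, 0.27 and -0.17, and 62.4%, 34.4% and 58.4% of them were below WT. Over all 11914 such protein-coding genes the medians were -0.03, -0.02 and -0.05, and 51.8%, 51.6% and 53.3% were below WT. Klhl9, an adaptor of a ubiquitin ligase 0.55 Mb away, was at 112 and 121 CPM in DKO clones 1 and 5 and 87.1 CPM in PRDX1MT, against 154 CPM in WT. Elavl2, a neuronal RNA-binding protein gene 1.96 Mb away on the other side, was at 2.05 and 12.3 CPM in the DKO clones and 0.36 CPM in PRDX1MT, against 5.88 CPM in WT, so the clones fell on either side of WT. Bnc2, a zinc finger protein gene 4.60 Mb away, was at 0.28 and 1.05 CPM in the DKO clones and 14.1 in PRDX1MT, against 33.1 in WT. Klhl9, Elavl2 and Bnc2 were also named after their values were seen, and with PRDX1MT and WT at 1 library each these differences have no replicate check.

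Loss of all reads was rare. Of 11548 genes with at least 100 reads in WT, 64 (0.554%) had 0 reads in DKO clone 1 and 64 (0.554%) in DKO clone 5. PRDX1MT had 20 such genes (0.173%). In all 3 edited libraries 10 genes (0.0866%) had 0 reads, and Cdkn2b and Cdkn2a ranked 3 and 5 among these 10 by WT reads. That both are among the 10 is what chose them and shows nothing further. The other 8 are on other chromosomes: Arhgef5 (822 WT reads), Sema3e, a secreted semaphorin (775), Ptprz1, a receptor tyrosine phosphatase (453), Sv2c, a synaptic vesicle protein (298), Pde3b, a cyclic nucleotide phosphodiesterase (294), Mgmt, which repairs alkylated guanine (260), Kcna6, a potassium channel subunit (194), and Lipo3, of a lipase gene family (172). Together the 10 lie on 6 chromosomes. Among 10704 protein-coding genes with at least 100 WT reads, ordered along the genome, Cdkn2a and Cdkn2b are the only neighbours that were both at 0.

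The genes whose pattern was nearest to that of Cdkn2a, by Euclidean distance in log2 CPM over the 4 libraries among 11923 protein-coding genes, were Ptprz1 (0.06), Cdkn2b (0.15), Sv2c (0.54), Pde3b (0.56) and Mgmt (0.73). For Cdkn2b they were Ptprz1 (0.09), Cdkn2a (0.15), Sema3e (0.68), Sv2c (0.69) and Pde3b (0.71). With 3 values at 0, this measure reflects the WT level alone.

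Cdkn2c, which encodes the INK4 protein p18Ink4c and lies elsewhere on the same chromosome (chr4:109660876-109667189), had 1538 and 3145 reads in DKO clones 1 and 5, 1419 in PRDX1MT and 2089 in WT. That is 43.1 and 114 CPM in the DKO clones (78.7 ± 50.3, SD, n = 2), 57.0 CPM in PRDX1MT and 50.8 CPM in WT. DKO clone 5 stood alone, and the other 3 libraries lay close together. It was 2.25-fold higher than WT (2.13 to 2.38) and 2.65-fold higher than DKO clone 1 (2.49 to 2.82), while DKO clone 1 was 1.18-fold lower than WT; the mean log2 ratio of the clones over WT, 0.47, is -0.23 without clone 5. PRDX1MT was 0.17 above WT on the log2 scale, and -0.11 with scaling to total counts. Cdkn2d, the remaining INK4 gene and not one of the 10, was at 18.8 and 34.0 CPM in the DKO clones and 22.8 in PRDX1MT, against 16.7 in WT.

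Set per kilobase of exon, the 4 INK4 genes summed to 28 CPM per kb in DKO clone 1, 64.1 in DKO clone 5, 35.7 in PRDX1MT and 47.0 in WT. In WT, Cdkn2a and Cdkn2b made up 19.2% and 17.9% of that sum, Cdkn2c 40.2% and Cdkn2d 22.7%. With the first pair at 0, Cdkn2c held 57.4% and 66.3% of the sum in DKO clones 1 and 5 and 59.5% in PRDX1MT. The sum counts every Cdkn2a read, those of p19Arf included, and its differences from WT include the pair chosen for being at 0. Cdkn2c and Cdkn2d alone summed to 28 CPM per kb in DKO clone 1, 64.1 in DKO clone 5 and 35.7 in PRDX1MT, against 29.5 in WT.

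**Figure D3:**
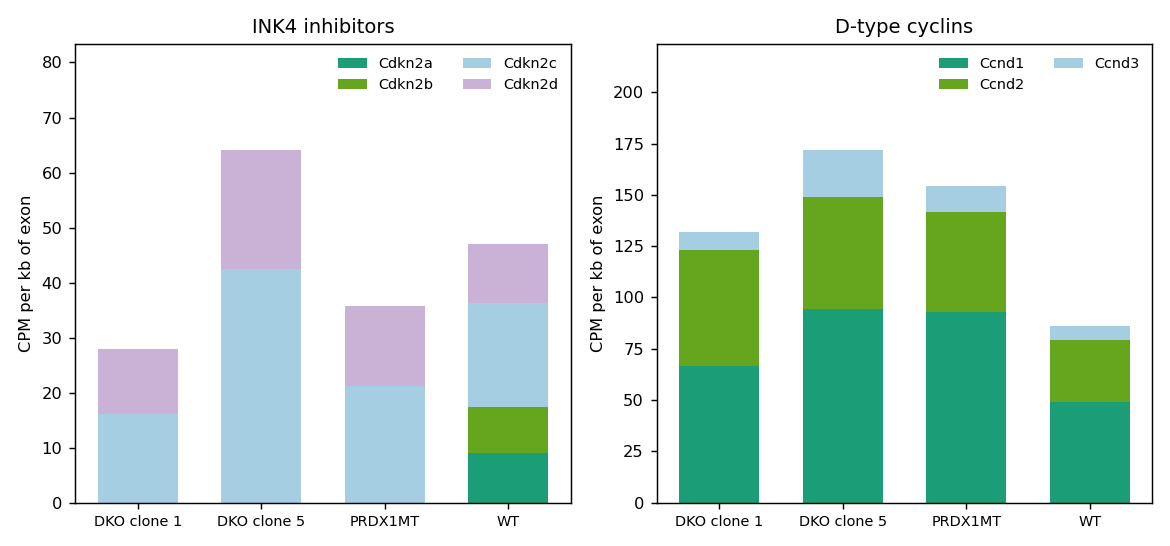
Stacked bars of CPM per kb of exon in each library for the INK4 inhibitors (left) and the D-type cyclins (right). WT is the library with segments for Cdkn2a and Cdkn2b; the D-type cyclin bars stand at 132, 172 and 154 CPM per kb in DKO clone 1, DKO clone 5 and PRDX1MT, above 86.1 in WT.

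Cdkn1b (chr6:134920401-134925513), which encodes the CIP/KIP inhibitor p27Kip1, had 3878 and 1843 reads in DKO clones 1 and 5, 1605 in PRDX1MT and 5058 in WT. Scaled, this was 109 and 66.9 CPM in the DKO clones (87.8 ± 29.6, SD, n = 2), 64.5 CPM in PRDX1MT and 123 CPM in WT. WT was the highest and DKO clone 1 close to it, and clone 5 and PRDX1MT lay near each other below. Cdkn1b was 1.13-fold lower in DKO clone 1, 1.84-fold lower in DKO clone 5 and 1.91-fold lower in PRDX1MT than in WT, and DKO clone 5 was 1.62-fold lower than DKO clone 1. With scaling to total counts Cdkn1b passed 2-fold in DKO clone 5 and in PRDX1MT, with log2 ratios to WT of -1.02 and -1.20. Cdkn1a, the p21 gene of the same family and a p53 target, ran the other way, at 384 and 275 CPM in DKO clones 1 and 5 and 305 CPM in PRDX1MT, against 126 CPM in WT. All 3 edited libraries lay above WT, by 1.60, 1.12 and 1.27 on the log2 scale, or 1.51, 0.98 and 1.00 with scaling to total counts; 0.949% of 12323 genes were 2-fold higher in all 3. With the spread of the clones taken into account, DKO against WT gave a log2 ratio of 1.38 for Cdkn1a with an adjusted p of 0.859 in edgeR's quasi-likelihood test, which did not pass. Cdkn1c, the remaining member, held 2 reads in PRDX1MT and none elsewhere.

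The D-type cyclins were higher in every edited library than in WT. Ccnd1 (chr7:144929931-144939925), which encodes cyclin D1, had 11228 and 12271 reads in DKO clones 1 and 5, 10902 in PRDX1MT and 9545 in WT, or 315 and 446 CPM in the DKO clones (380 ± 92.5, SD, n = 2), 438 CPM in PRDX1MT and 232 CPM in WT. WT was the lowest library, DKO clone 1 came next, and clone 5 and PRDX1MT were highest. The ratios to WT were 1.36-fold, 1.92-fold and 1.89-fold. Ccnd2 (chr6:127125162-127152193), which encodes cyclin D2, had 18809 and 14010 reads in the DKO clones, 11354 in PRDX1MT and 11571 in WT, or 527 and 509 CPM in the DKO clones (518 ± 13.2, SD, n = 2), 456 CPM in PRDX1MT and 281 CPM in WT. The 3 edited libraries lay close together, 1.88-fold, 1.81-fold and 1.62-fold above WT. With scaling to total counts the log2 ratios of Ccnd2 to WT were 0.81, 0.72 and 0.42, with PRDX1MT further below the DKO clones. Neither cyclin reached 2-fold in any library, and 23.4% of the exon bases of Ccnd1 and 7.86% of those of Ccnd2 lie under genes of the other strand, whose reads may be counted or lost there.

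Per kb of exon, Ccnd1 was the leading D-type cyclin in every library. It made up 50.8% and 55.1% of the D-type cyclin sum per kb in DKO clones 1 and 5, 60.4% in PRDX1MT and 57.2% in WT. Ccnd2 made up 42.6% and 31.5% in the DKO clones, 31.5% in PRDX1MT and 34.7% in WT. Ccnd3, not one of the 10, was the least abundant, with 6.70% and 13.5% in the DKO clones, 8.19% in PRDX1MT and 8.06% in WT, and its level was 77.4 and 203 CPM in the DKO clones and 111 in PRDX1MT, against 60.9 in WT. As with Cdkn2c, DKO clone 5 was the library with the most Ccnd3.

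Of the kinases, Cdk4 (chr10:127063534-127067920) had 11152 and 7493 reads in DKO clones 1 and 5, 6407 in PRDX1MT and 14446 in WT, or 313 and 272 CPM in the DKO clones (292 ± 28.7, SD, n = 2), 258 CPM in PRDX1MT and 351 CPM in WT. Each edited library was below WT, by 1.12-fold, 1.29-fold and 1.36-fold, and 19.7% of the exon bases lie under Tspan31 on the other strand. Cdk6 (chr5:3341485-3531008) had 1475 and 2697 reads in the DKO clones, 1083 in PRDX1MT and 2192 in WT, or 41.4 and 97.9 CPM in the DKO clones (69.7 ± 40.0, SD, n = 2), 43.5 CPM in PRDX1MT and 53.3 CPM in WT. DKO clone 5 again stood apart, 1.84-fold above WT and 2.37-fold above DKO clone 1 (2.22 to 2.53), whereas DKO clone 1 was 1.29-fold and PRDX1MT 1.22-fold below WT. The mean log2 ratio of the clones over WT, 0.26, is -0.36 without clone 5. Per kb of exon Cdk4 remained the dominant kinase, with 97.0% and 92.3% of the Cdk4 and Cdk6 sum in the DKO clones, 96.2% in PRDX1MT and 96.6% in WT.

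Rb1 (chr14:73183673-73325822), the pocket protein gene that the kinases act on, was the steadiest of the 10. It had 1097 and 709 reads in DKO clones 1 and 5, 724 in PRDX1MT and 1261 in WT, or 30.8 and 25.7 CPM in the DKO clones (28.3 ± 3.54, SD, n = 2), 29.1 CPM in PRDX1MT and 30.6 CPM in WT. The intervals of the ratios to WT include 0 on the log2 scale for DKO clone 1 (-0.11 to 0.12) and PRDX1MT (-0.21 to 0.06), and DKO clone 5 was 1.19-fold lower (1.08 to 1.31). With scaling to total counts the log2 ratio of PRDX1MT was -0.35, against -0.07 with the TMM scaling used otherwise. Of its exon bases 14.9% lie under Rcbtb2 or Lpar6.

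By level per kb of exon, the WT order was Cdk4 (108 CPM per kb), Mtap (60.8), Ccnd1 (49.3), Ccnd2 (29.9), Cdkn1b (27.0), Cdkn2c (18.9), Cdkn2a (9.0), Cdkn2b (8.43), Rb1 (5.09) and Cdk6 (3.81). The counting intervals of Cdkn2a (8.17 to 9.89) and Cdkn2b (7.69 to 9.21) overlap, so their order is not resolved, and all other neighbours are separated by more than counting error. In WT the pair was thus expressed above Rb1 and Cdk6 per unit of length, and below the remaining genes. Cdk4 also led in DKO clone 1 (96.2 CPM per kb), while Ccnd1 led in DKO clone 5 (94.6) and PRDX1MT (93.1).

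By a size rule of at least 2-fold with at least 100 reads in the 2 libraries compared, 0 of the 10 genes were higher and 2 lower in DKO clone 1 than in WT, where 8.4% of all genes that could pass were higher and 7.56% lower. In DKO clone 5, 1 gene (Cdkn2c) was higher and 2 lower, against 5.69% and 8.58% of all genes. In PRDX1MT 0 were higher and 3 lower, the pair and Mtap, against 7.25% and 7.57%. Between the clones, 2 genes (Cdkn2c and Cdk6) were higher and 0 lower in DKO clone 5 than in DKO clone 1, against 7.63% and 10.7% of all genes. Since the genes were chosen on these same contrasts, nothing is read from the counts. All 10 passed the filter on low counts, Cdkn2a and Cdkn2b through the WT library alone.

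The rest of the pathway was followed in 88 genes of 9 lists outside the 10, of which 87 had enough reads to test and Cdkn1c did not. In edgeR's quasi-likelihood test none of the 87 passed at an adjusted p under 0.05 in DKO against WT, where 0.0154% of 19446 genes were called higher and 0.453% lower, and 4 of the 87 (4.60%) were under 0.05 before adjustment, against 5.08% of all genes. None passed in DKO against PRDX1MT either (0.0103% of all genes called higher and 0.195% lower), with 2 of the 87 (2.30%) under 0.05 before adjustment against 4.69% of all genes, and DESeq2 also called 0 in both comparisons. The 4 in DKO against WT were Cdkn1a, Id1, E2f6 and Cdt1, named because of these values. Id1, a helix-loop-helix protein known to hold down p16Ink4a, was at 328 and 270 CPM in DKO clones 1 and 5 and 362 in PRDX1MT against 119 in WT (log2 ratio of DKO to WT 1.33, edgeR adjusted p 0.862). E2f6, a repressing E2F, was at 13.4 and 12.7 CPM in the DKO clones, 35.1 in PRDX1MT and 29.0 in WT (log2 ratio of DKO to WT -1.15, edgeR adjusted p 0.863). Cdt1, which licenses replication origins, was at 47.3 and 92.8 CPM in the DKO clones and 75.2 in PRDX1MT against 26.9 in WT (log2 ratio of DKO to WT 1.38, edgeR adjusted p 0.924).

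DKO clone 5 was the highest of the 4 libraries for 24 of 25 E2F target genes, all but Cdc25a, which was highest in PRDX1MT. Its median log2 ratio to WT over the 25 was 1.02, with 25 of 25 above WT and 14 at least 2-fold higher. In DKO clone 1 the median was 0.03 with 13 of 25 above WT, and in PRDX1MT 0.06 with 15 of 25. Over all 19446 genes the medians were -0.02, -0.04 and -0.01 for DKO clone 5, DKO clone 1 and PRDX1MT, and 48.3%, 47.4% and 49% of genes were above WT. Against DKO clone 1 directly, DKO clone 5 was higher in 25 of 25, with a median log2 ratio of 1.17 and 18 at least 2-fold higher. Over all 19446 genes the median of that ratio was 0.0005, and 50% of genes were higher in DKO clone 5. Of all genes that could pass the size rule, 5.69% were 2-fold higher in DKO clone 5 than in WT. Against DKO clone 1 the share was 7.63%. Scaling to total counts, which shifts all genes by -0.10, -0.14 and -0.27 in DKO clone 1, DKO clone 5 and PRDX1MT, left the clone 5 median at 0.88 with 25 of 25 above WT, and turned the medians of DKO clone 1 and PRDX1MT to -0.06 and -0.21. These are 2 clones of 1 genotype with 1 library each, so the difference between them has no replicate check.

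Among those targets, Rrm1, the large subunit of ribonucleotide reductase, was at 108 and 245 CPM in DKO clones 1 and 5 and 127 in PRDX1MT, against 125 in WT. Mcm4, a subunit of the replicative helicase, was at 96.3 and 217 CPM in the DKO clones and 84.4 in PRDX1MT, against 87.5 in WT. Its partner Mcm3 was at 95.3 and 189 CPM in the DKO clones and 113 in PRDX1MT, against 83.7 in WT. In each of these 3 genes DKO clone 5 was the highest library, and the others lay closer to one another. Of the E2F family and its dimer partners, 8 of 10 were above WT in DKO clone 5 (median log2 ratio 1.04), 3 of 10 in DKO clone 1 (-0.07) and 8 of 10 in PRDX1MT (0.51). Tfdp1, a dimer partner, was at 82.2 and 191 CPM in the DKO clones and 99.2 in PRDX1MT, against 88.9 in WT, and E2f1, an activating E2F, was at 68.9 and 89.6 CPM in the DKO clones and 77.0 in PRDX1MT, against 38.3 in WT. E2f1 was thus above WT in all 3 edited libraries, and Tfdp1 stood out in clone 5. The 4 other G1 cyclin and kinase genes were Ccnd3, Ccne1, Ccne2 and Cdk2. Their median log2 ratios to WT were 1.56 in DKO clone 5, 0.05 in DKO clone 1 and 0.39 in PRDX1MT. With scaling to total counts these medians were 1.42, -0.04 and 0.12 in the same order. Those of the E2F family became 0.90, -0.17 and 0.24.

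**Figure D4:**
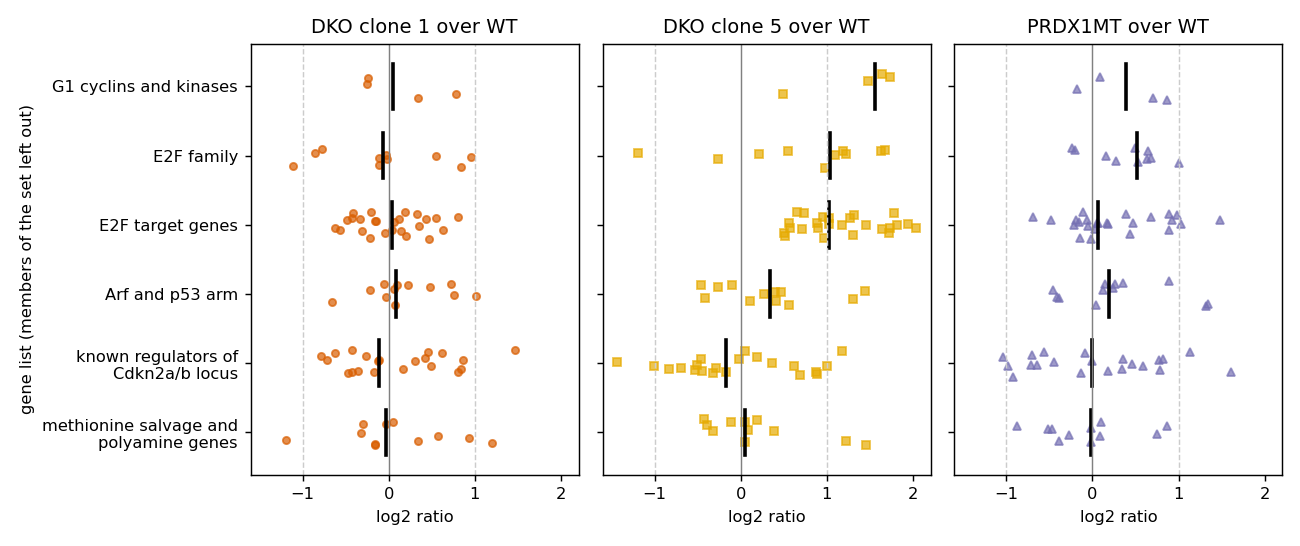
Log2 ratio to WT of each gene of 6 lists outside the 10 described genes, in DKO clone 1 (left), DKO clone 5 (middle) and PRDX1MT (right), with 1 point per gene and a bar at the median; dashed lines mark 2-fold. In DKO clone 5 the E2F targets all lie above WT around a median of 1.02, while in DKO clone 1 and PRDX1MT their medians are 0.03 and 0.06.

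The other arm of the locus runs from p19Arf to p53. Its 12 genes had median log2 ratios to WT of 0.08 in DKO clone 1, 0.34 in DKO clone 5 and 0.19 in PRDX1MT, with 8, 8 and 9 genes above WT. Over all 19446 genes, 47.4%, 48.3% and 49% were above WT in the same order. With scaling to total counts the medians of the 12 genes were -0.01, 0.20 and -0.09, with 5, 7 and 4 of them above WT. The direction in DKO clone 1 and PRDX1MT thus depends on the scaling. Phlda3, a p53 target that restrains Akt, was at 228 and 378 CPM in DKO clones 1 and 5 and 350 in PRDX1MT, against 138 in WT. Ccng1, another p53 target, was at 176 and 225 CPM in the DKO clones and 128 in PRDX1MT, against 169 in WT, and Mdm4, an inhibitor of p53, at 124 and 105 CPM in the DKO clones and 108 in PRDX1MT, against 144 in WT. The p53 gene itself, Trp53, was at 70.9 and 93.5 CPM in the DKO clones and 81.8 in PRDX1MT, against 112 in WT, the highest of the 4; it too was named after its values were seen. None of the 12 passed in either comparison of DKO.

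Genes known to act on the locus, 21 Polycomb, ETS, Id, T-box and related factors, had median log2 ratios to WT of -0.11 in DKO clone 1, -0.17 in DKO clone 5 and 0.00 in PRDX1MT, or -0.21, -0.31 and -0.28 with scaling to total counts. The 3 with the most reads were Cbx6, a Polycomb chromobox protein, at 359 and 377 CPM in the DKO clones and 298 in PRDX1MT against 233 in WT, Id1 (above), and Kdm6b, a demethylase of the Polycomb mark, at 168 and 68.6 CPM in the DKO clones and 156 in PRDX1MT against 122 in WT. Bmi1, the Polycomb protein known for repressing Cdkn2a in mice, was at 61.8 and 60.4 CPM in the DKO clones and 43.5 in PRDX1MT, against 85.8 in WT, lower in each edited library than in WT. Tbx3, a T-box repressor known to act on p19Arf, was at 14.3 and 11.7 CPM in the DKO clones and 51.5 in PRDX1MT, against 23.5 in WT; in DKO against PRDX1MT its log2 ratio was -1.99 with an edgeR adjusted p of 0.275. Bmi1 and Tbx3 were named with their values known.

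The list of methionine salvage and polyamine genes around Mtap held 11 other genes, among them Prmt5, which is an enzyme of neither pathway. Their median log2 ratios to WT were -0.03 in DKO clone 1, 0.05 in DKO clone 5 and -0.02 in PRDX1MT. With scaling to total counts the medians were -0.13, -0.09 and -0.29. Odc1, which makes putrescine, was at 140 and 315 CPM in the DKO clones and 225 in PRDX1MT, against 135 in WT. Mat2a, which makes S-adenosylmethionine, was at 282 and 168 CPM in the DKO clones and 146 in PRDX1MT, against 147 in WT, and Sat1, which acetylates polyamines, at 169 and 56.0 CPM in the DKO clones and 51.1 in PRDX1MT, against 73.4 in WT. Odc1 and Sat1 differed 2-fold or more between the DKO clones, Odc1 higher and Sat1 lower in clone 5.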

How the data were processed

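RNA from 4 C3H10T1/2 libraries was made into stranded libraries after removal of ribosomal RNA, per the labels' protocols, and aligned with STAR 2.6.1d to mm10, per the submitters' processing notes. The authors deposited whole-number read counts per gene, without normalization; the program that counted, the annotation and the use of strand are each not given in the sources used here, so overlapping genes are uncertain. Of 54532 Ensembl identifiers, 54495 were found in GENCODE M21, used for symbols and positions, and the 37 without a match made up no more than 0.00463% of any library. The genes described and all lists were chosen with earlier results of these data known.

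The software was edgeR 4.0.16, DESeq2 1.42.0 and limma 3.58.1 under R 4.3.3, and Python 3.11.15. DKO (2 clones), PRDX1MT (1 library) and WT (1 library) entered 1 fit of edgeR's quasi-likelihood test, after TMM scaling and filterByExpr, and a gene was called at a p under 0.05 after Benjamini-Hochberg adjustment across 19446 genes. With 1 residual and 6.54 prior degrees of freedom, the spread of the clones stood in for that of the single libraries. It called 3 genes higher and 88 lower in DKO than in WT (988 under 0.05 before adjustment), and 2 higher and 38 lower than in PRDX1MT (912 before adjustment). Single libraries were compared by ratios of TMM-scaled counts with 95% conditional exact binomial intervals. The size rule asked for a log2 ratio of at least 1 in size (prior count 2), 100 reads in the pair and an interval that excludes 0. Folds against 0 reads use a floor of 3 counts and take the WT count as exact, so they are lower bounds only at that floor. Levels have exact Poisson intervals. Without molecular identifiers PCR copies count as separate reads, so intervals and floors cover counting error only. Of each list, the genes that passed and up to 3 others with the most reads were named, and other names are marked. The scripts were tested on simulated data with less spread between libraries than was fitted in these data. That run was a check of the code and does not measure what this design can detect. Alternatives were DESeq2, total-count or median-of-ratios scaling, all genes unfiltered, a fit of the compared groups alone, leaving out each clone, prior counts of 0.5 and 5, WT minimums of 20 and 500 reads, and windows of 2 and 10 Mb.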

Additional observations from a re-analysis of the deposited data

How the results depend on the processing

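The number of the 10 genes at least 2-fold from WT (2 in DKO clone 1, 3 in DKO clone 5, 3 in PRDX1MT) stayed within 1.5 times under each scaling and prior count tried; it was 2, 4 and 4 with scaling to total counts, where Cdkn1b passed 2-fold in DKO clone 5 and PRDX1MT. The counts of genes called over the whole table depended on the method far more. In DKO against WT they were 3 higher and 88 lower, with 56 and 206 in DESeq2, 130 and 405 without a filter on low counts, and, with 1 clone left out and WT and PRDX1MT joined, 4 to 37 higher and 17 to 55 lower. In DKO against PRDX1MT they were 2 higher and 38 lower, with 61 and 154 in DESeq2, 0 and 13 with median-of-ratios scaling, 137 and 267 without a filter, 0 and 11 with only the groups compared, and 4 to 37 and 17 to 55 with 1 clone left out. The 4 and 17 are without clone 1, the 37 and 55 without clone 5, and the lone clone is assumed to vary like the joined libraries. Of the other pathway genes 0 were called in each of these fits, apart from 1, Tbx3, in DKO against PRDX1MT without a filter. Genes at 0 in all edited libraries numbered 10 with at least 100 WT reads, 42 with at least 20, 2 with at least 500, and 12 to 13 with 1 clone left out. The median log2 ratio around Cdkn2a in PRDX1MT was -0.24 within 5 Mb and -0.63 within 2 Mb. Few genes lie within 2 Mb, so that median is the value of Hacd4 alone. The genes there were Mllt3 (-0.15), Focad (-0.14), Hacd4 (-0.63), Klhl9 (-0.82) and Elavl2 (-3.81). Of 180 ratios of single genes recomputed, 141 moved by less than the spread or interval, and 39 by more, mostly those of Cdkn2a and Cdkn2b, whose fitted ratio depends on the prior count. Rb1 was 0.01 on the log2 scale in DKO clone 1 and -0.07 in PRDX1MT, or -0.09 and -0.35 with scaling to total counts, and its clone mean was -0.12, or 0.01 without clone 5. The cause of these differences was not tested. No paired analysis was possible because the groups share fewer than 2 replicate numbers. With 1 WT and 1 PRDX1MT library, no spread within those groups was measured, and low noncoding genes near the locus were at the limit of the depth.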
